A study of Mus musculus with 8 samples.

Results

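The regions described here were accessible in every library of the study and had the largest loss of ATAC-seq summit signal between 0 h and 120 h post-RA. Overlapping peaks, sharing 1 bp or more, were joined across the 8 libraries, which turned 328733 peaks into 87144 accessible regions, and 15536 of these held a peak in all 8 libraries. In each of these shared regions the highest summit signal of a library was taken as log2, the median of that library over the shared regions was subtracted, and the 2 replicates were averaged. A region was kept where this centred signal was lower by 1.5 or more at 120 h than at 0 h. The rule kept 239 of the 15536 shared regions, or 1.54%, and these are called the falling regions. By the same measure 218 shared regions rose by 1.5 or more and are used for comparison. A region is called distal here where it holds no CpG island and its summit lies over 1000 bp from the start of any assigned gene. Only starts given with the deposited peaks count, so some distal regions lie within 1000 bp of another annotated protein-coding start. The falling regions were thus selected on the summit signal at 0 h and 120 h, so their values at those timepoints are a description and carry no test.

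The study followed spermatogonial differentiation in mouse testes synchronized with WIN 18,446, an inhibitor of RA synthesis. Every group had received WIN 18,446 for 7 days, from 2 to 9 days post partum, so the 0 h germ cells were also from inhibitor-treated animals, and the 18, 48 and 120 h animals were injected with RA at the end of that treatment. Germ cells were sorted by PIWIL2-eGFP, a transgene under the Piwil2 promoter that is on from before birth to early spermatids, and each of the 2 libraries per timepoint came from 1 mouse. The study assigns 0 h to A_undiff, 18 h to A1/A2, 48 h to A3 and 120 h to B spermatogonia. The labels give a strain derived from C57BL/6 x 129s4/SvJae for all libraries, whereas the methods name C57BL/6 x SJL for the mice. Since these are bulk samples of sorted cells, a weaker signal in each cell and a smaller share of cells with the region open cannot be told apart.

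ATAC-seq reads the cuts that a transposase makes in open DNA, so a tall summit marks DNA that is little covered by nucleosomes in many cells. Open DNA at gene starts, often within CpG islands, tends to be shared between cell types, whereas distal open regions such as enhancers are more often specific to a cell state and are bound by sequence-specific factors. NF-Y is a trimeric factor that binds the CCAAT box, and RA acts through nuclear receptors that bind AGGTCA half-sites as dimers, which in spermatogonia starts differentiation.

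The libraries held from 24643 to 72215 peaks, with the most at 0 h, and the lowest deposited summit signal of a peak was 24 or 25 in every library. The median log2 summit signal of all shared regions was 7.94 ± 0.19 (0 h), 6.68 ± 0.25 (18 h), 6.55 ± 0.17 (48 h) and 7.05 ± 0.46 (120 h) (mean ± SD, n = 2 libraries), a shift of the whole library that the centring removed. Of 8 germ cell markers, 7 had a peak at their gene start in all 8 libraries. Of 12 Sertoli cell markers, *Amhr2*, *Gata1*, *Fshr* and *Rhox5* had no such peak in any library, and the summed signal over the list was 834 and 987 (0 h), 191 and 302 (18 h), 259 and 359 (48 h), and 352 and 211 (120 h). Of 5 macrophage markers, *Adgre1*, *Ptprc* and *C1qa* had no peak in any library, and the list summed to 208 and 166 (0 h) and to 0 in all later libraries. The sums were 512 and 601 (0 h) and 276 and 86 (120 h) for 5 peritubular myoid markers, 185 and 266 against 40 and 38 for 5 endothelial markers, of which *Pecam1*, *Cdh5* and *Vwf* were at 0 throughout, and 74 and 77 against 0 and 0 for 7 Leydig cell markers, where *Lhcgr* alone had a peak. The germ cell list summed to 3097 and 3961 (0 h) and to 2794 and 2247 (120 h). These uncentred sums were highest at 0 h, as were the falling regions, and the part of other cell types in the falling regions was not tested.

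Windows of 200 bp centred on the summit are shown for the 4 regions that fell most. Each holds the CCAAT box, the motif whose share differed most between distal falling regions and other distal regions. The windows were read 5′ to 3′ from the GRCm38 reference, the genome build of the files, and capitals mark each CCAAT or its reverse complement ATTGG. All 4 lie away from gene starts, and together they hold 3, 1, 4 and 3 copies in the order shown. In the chromosome 2 and 17 windows at least 1 run of 15 bases recurs, and the chromosome 4 window is 100% repeat-masked. Among the 12 regions with the largest falls, only those in introns of *Adgrl2* and *Cndp1* hold 0 copies.
chr2:125280125-125280324, plus strand: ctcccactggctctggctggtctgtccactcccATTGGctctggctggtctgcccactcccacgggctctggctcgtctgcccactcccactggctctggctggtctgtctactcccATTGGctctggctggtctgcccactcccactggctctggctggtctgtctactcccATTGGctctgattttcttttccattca
chr4:89014653-89014852, plus strand: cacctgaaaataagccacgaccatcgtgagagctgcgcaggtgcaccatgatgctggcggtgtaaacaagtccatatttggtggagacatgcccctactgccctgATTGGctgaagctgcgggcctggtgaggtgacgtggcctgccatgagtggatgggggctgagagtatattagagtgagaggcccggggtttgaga
chr17:50394845-50395044, plus strand: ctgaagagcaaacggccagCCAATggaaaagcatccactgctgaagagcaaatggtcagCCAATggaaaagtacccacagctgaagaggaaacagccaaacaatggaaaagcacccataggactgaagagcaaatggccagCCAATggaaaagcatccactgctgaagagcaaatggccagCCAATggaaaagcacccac
chr9:49873693-49873892, plus strand: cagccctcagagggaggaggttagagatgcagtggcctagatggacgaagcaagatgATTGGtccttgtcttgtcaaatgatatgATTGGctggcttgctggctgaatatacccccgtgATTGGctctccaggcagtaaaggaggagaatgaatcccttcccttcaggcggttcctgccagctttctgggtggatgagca

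The first of these, at chr2:125279920-125280592, lay 5660 bp from the start of the assigned *A530010F05Rik*, in intergenic DNA. Its summit signal was 524 and 611 (0 h), 125 and 170 (18 h), 61 and 115 (48 h), and 76 and 36 (120 h), and the centred change at 120 h was -2.54. Both 0 h libraries stood above all 6 later ones, and the other 3 regions shown had the same order. The rule chose these regions for their fall, and on this uncentred scale the median of all shared regions was also highest at 0 h. The second, at chr4:89014521-89014978, lay 122 kb from the nearest protein-coding start, that of *Mtap*, and had signals of 386 and 467 (0 h), 52 and 91 (18 h), 47 and 63 (48 h), and 42 and 43 (120 h). Of the 4 it fell earliest, since 56.2% of its centred change of -2.43 was already present at 18 h. The third, at chr17:50394589-50395206, lay 101 kb from the start of *Dazl*, which encodes an RNA-binding protein needed for germ cell development. Its signal was 598 and 540 (0 h), 140 and 183 (18 h), 77 and 97 (48 h), and 88 and 37 (120 h), with a centred change of -2.43. The fourth, at chr9:49873483-49874092, lay 74.9 kb from the start of *Ncam1*, a cell adhesion molecule of the immunoglobulin family. Its signal was 533 and 449 (0 h), 163 and 180 (18 h), 63 and 91 (48 h), and 74 and 35 (120 h).

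The other 8 of the 12 regions with the largest falls had centred changes from -2.37 to -2.18 and were also away from gene starts. They included introns of *Adgrl2*, a latrophilin, of *Cndp1*, a dipeptidase, of *Cdh13*, which encodes T-cadherin, of *Lhfp* and of *Afp*, the alpha-fetoprotein gene. The tallest of them, at chr5:111643957-111644826 in intergenic DNA, had signals of 1111 and 1127 (0 h), 209 and 510 (18 h), 139 and 186 (48 h), and 156 and 87 (120 h). The *Lhfp* region at chr3:53233298-53234016 had 6 CCAAT copies in its window, and its signal was 791 and 874 (0 h), 349 and 423 (18 h), 89 and 222 (48 h), and 146 and 57 (120 h). Unlike the other 7, its centred signal was 0.15 higher at 18 h than at 0 h and was lower only from 48 h on.

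**Figure D1:**
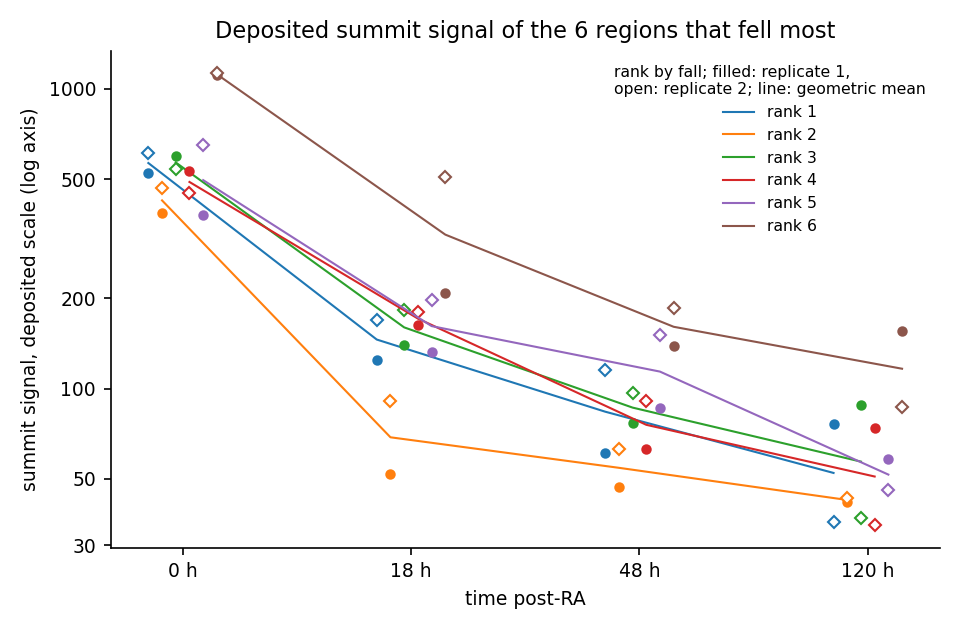
Deposited summit signal (log axis) of the 6 regions with the largest fall at the 4 timepoints post-RA, with 1 colour per region, filled circles for replicate 1, open diamonds for replicate 2 and lines through the geometric means of the 2 libraries. In each of the 6 regions both 0 h libraries lie above all later libraries, as in the region of rank 1 with 524 and 611 (0 h) and at most 170 later. The values are not centred, and the regions were chosen for their fall.

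Across all 239 falling regions the median deposited summit signal was 335 and 389 in the 0 h libraries, 103 and 132 (18 h), 67 and 97 (48 h), and 80 and 42 (120 h). The lowest and highest were 151 and 1372 over both 0 h libraries and 29 and 288 over both 120 h libraries, so that the second 120 h library, with a median of 42, lay close to the lowest value that gave a peak. Since a region needed a peak in all 8 libraries, a fall that ended below that value could not enter. After centring, the library medians were 0.58 and 0.53 (0 h), 0.18 and 0.19 (18 h), -0.36 and -0.07 (48 h), and -1.05 and -1.34 (120 h). The falling regions thus went from above the typical shared region to well below it. The median change at 120 h was -1.65, with quartiles of -1.84 and -1.58 and a lowest value of -2.54, beside 0.14 over all shared regions. Without centring, the medians were -2.54 for the falling regions and -0.75 for all shared regions.

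**Figure D2:**
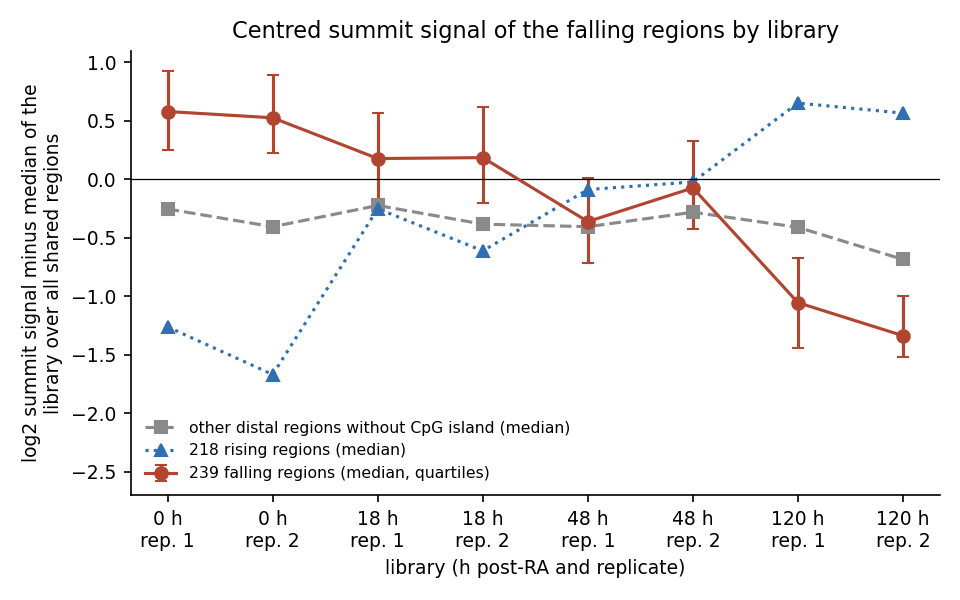
Centred log2 summit signal in each of the 8 libraries for the 239 falling regions (median with quartile bars), for the other distal regions and for the 218 regions that rose by 1.5 or more (medians). The falling regions go from 0.58 and 0.53 (0 h) to -1.05 and -1.34 (120 h), and the other distal regions from -0.25 and -0.40 to -0.41 and -0.68.

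The 3 regions just inside the limit had changes of -1.5, and they lay at the start of *Ccdc89*, in an intron of *Map4k3* and in intergenic DNA on chromosome 4. The 3 regions just outside had changes of -1.5 to -1.49. The *Map4k3* region, at chr17:80710064-80710733, had signals of 191 and 206 (0 h), 59 and 75 (18 h), 52 and 79 (48 h), and 42 and 34 (120 h). The intron region of *Spata48* at chr11:11497603-11498479, which missed the limit, had 321 and 315 (0 h), 129 and 176 (18 h), 114 and 125 (48 h), and 103 and 36 (120 h), so the limit cut through a continuous range. The number of regions depended on the scale: 2502 regions passed without centring, all 239 among them, and 75 passed where the libraries were centred on distal regions alone, a scale chosen after seeing the data. Without replicate 1 at 120 h, 410 regions passed, of which 204 were falling regions. Without replicate 2 at 120 h, 354 passed, of which only 111 were falling regions, so most of the 239 missed the limit there.

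On the centred scale, which is used for all steps below, the fall was spread over the time course and was largest at its end. On the deposited scale the medians dropped most from 0 h (335 and 389) to 18 h (103 and 132). They then stood at 67 and 97 (48 h) and 80 and 42 (120 h). The median of all shared regions also dropped most from 0 to 18 h, a shift that the centring removed. That log2 median then rose from 6.55 (48 h) to 7.05 (120 h), which makes the centred fall from 48 to 120 h larger than the deposited one. The median centred change was -0.33 from 0 to 18 h, -0.38 from 18 to 48 h and -0.98 from 48 to 120 h, and the last step was the largest in 188 of the 239 regions, or 78.7%. The same share was not counted over all shared regions, and the last step ends in the 120 h libraries of the rule. The signal was lower at each of the 3 steps in 181 regions (75.7%), against 10.3% of all shared regions. The rule required a fall from 0 to 120 h and so favours this order, which makes the difference no separate result. At 18 h a median of 19.6% of the final change was present, and at 48 h a median of 42.9%. A change of -0.75 was reached by 18 h in 28 regions, by 48 h in a further 90 and only at 120 h in 121. These steps share the 0 h or 120 h libraries with the rule, so they were not tested, except for the step from 18 to 48 h, whose change uses neither.

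The early and late ends of this range can be seen in single regions. The *Dera* intron region at chr6:137846007-137846668 had signals of 231 and 414 (0 h), 42 and 49 (18 h), 34 and 40 (48 h), and 53 and 57 (120 h). It had 94.3% of its centred change by 18 h, and all 6 later libraries lay between 34 and 57. Another early region, at chr12:89811823-89812773 in an intron of *Nrxn3*, a neurexin, went from 457 and 347 (0 h) to 55 and 88 (18 h) and stood at 84 and 55 (120 h). It lay 0.13 kb from an annotated coding start of *Nrxn3*, other than the assigned one, and so counts as distal here. At the other end, the region at chr17:5093289-5093899 in an intron of *Arid1b*, a subunit of the BAF chromatin remodelling complex, had 227 and 499 (0 h), 167 and 240 (18 h), 84 and 162 (48 h), and 71 and 44 (120 h). Its centred signal was 0.51 higher at 18 h than at 0 h.

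The change from 18 to 48 h rests on libraries that took no part in choosing the regions, beyond the peak that each had to hold. Its SE and p come from a spread pooled over all 8 libraries, so these also draw on the 0 h and 120 h libraries of the rule. In this step 212 of the 239 falling regions (88.7%) had a lower centred signal at 48 h, against 48.8% of all shared regions. The median change was -0.38 (quartiles -0.62 and -0.16), beside 0.01 for all shared regions, -0.04 for the 5242 other distal regions and 0.31 for the rising regions. Both 48 h libraries lay below both 18 h libraries in 136 falling regions (56.9%), where the background over all shared regions was 19.0%, and above both in 7 (2.93%), where it was also 19.0%. In limma over all 15536 shared regions, no falling region passed an adjusted p of 0.05 in either direction (0 lower and 0 higher, with 0% of all shared regions called each way), and the lowest adjusted p of a falling region was 0.283. At an unadjusted p under 0.05, 69 falling regions (28.9%) were lower and 1 (0.418%) was higher, where 3.15% and 2.75% of all shared regions were. The count of 69 was 27 without replicate 1 at 48 h and 45 without replicate 2 at 18 h, and the median change was -0.22 without replicate 1 at 48 h. Among distal regions whose 0 h signal was at least that of the lower quartile of the distal falling regions, the median was -0.48 in 144 falling regions and -0.20 in 1031 others, of which 78.5% were lower at 48 h, so a lower signal at 48 h was also common in other tall distal regions.

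**Figure D3:**
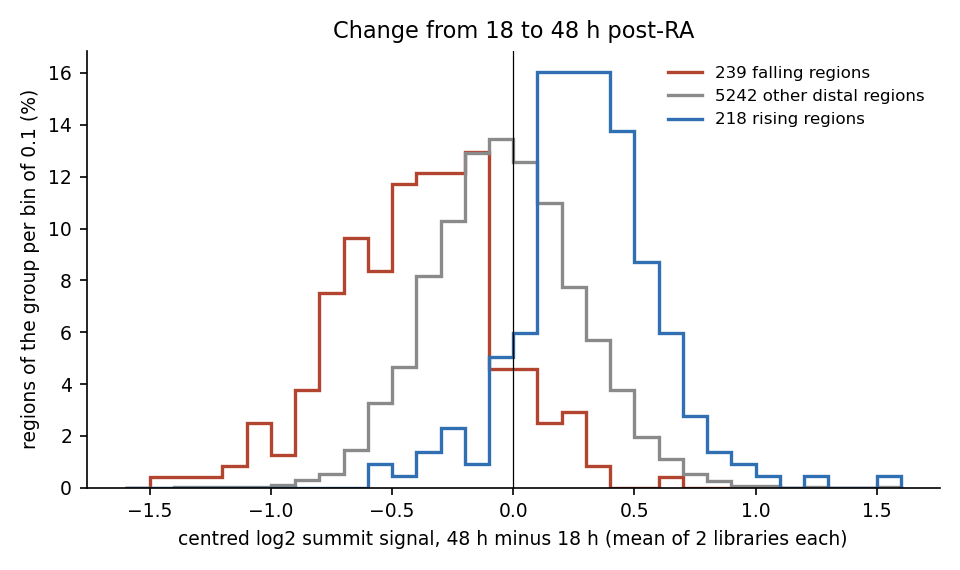
Distribution of the change in centred log2 summit signal from 18 to 48 h post-RA (mean of 2 libraries each), as the percentage of each group per bin of 0.1, for 239 falling, 5242 other distal and 218 rising regions. The falling regions lie mostly to the left of 0 with a median of -0.38, the other distal regions centre at -0.04 and the rising regions at 0.31.

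The regions with the lowest p in this step, named after their values were seen, lay away from gene starts in 4 of 5 cases. The lowest was at chr15:96787843-96788419, 88.4 kb from the start of *Slc38a2*, with 303 and 533 (0 h), 166 and 211 (18 h), 56 and 72 (48 h), and 75 and 57 (120 h). Its change from 18 to 48 h was -1.43 (SE 0.22, limma adjusted p = 0.283), and both 48 h libraries lay well under both 18 h ones. The region at chr2:178178065-178178605 in an intron of *Phactr3*, a regulator of protein phosphatase 1, had 117 and 144 (18 h) and 47 and 60 (48 h), a change of -1.16 (SE 0.20, limma adjusted p = 0.296). The *Abhd6* intron region at chr14:8054233-8055204 had 784 and 982 (0 h), 349 and 456 (18 h), 125 and 212 (48 h), and 166 and 75 (120 h). Against these, the start of *Rsl1* had 57 and 96 (18 h) and 67 and 107 (48 h), a change of 0.33 (SE 0.23, limma adjusted p = 0.888), and its libraries of the 2 timepoints overlapped.

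The limit was also applied to 1 library at 0 h and 120 h at a time and the values read in the other libraries of those timepoints. These are the libraries of the rule itself, and equal replicate numbers do not mark pairs, so the values are a description. The same limit applied to the replicate 1 libraries alone chose 252 regions with a median change of -1.71, and their median in the replicate 2 libraries was -1.36. In that second pair 98.0% of them were below 0, against 40.5% of all shared regions, and 43.7% were again at the limit, against 2.56%. Choosing in replicate 2 gave 397 regions with a median of -1.76, which was -1.21 in replicate 1, where 98.7% were below 0 and 27.7% were at the limit, against 44.7% and 1.62% of all shared regions.

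The falling regions mostly lay away from gene starts and CpG islands. Of the regions, 12 of the 239 (5.02%, 95% Wilson interval 2.90 to 8.57%) held a CpG island, against 58.6% of all shared regions, and 43 (18.0%, 13.6 to 23.4%) had their summit within 1000 bp of the start of an assigned gene, against 57.1%. Neither applied to 192 of them (80.3%), the distal falling regions, against 35.0%. The rising regions were distal in 84.4%, so a distal position was shared by regions that changed in either direction. The summit fell in intergenic DNA in 129 falling regions, in an intron in 90, in an exon in 10 and in a UTR in 10. The median distance to the nearest protein-coding start was 36.4 kb, against 0.228 kb for all shared regions, and 57 lay over 100 kb away. A gene was assigned by the deposited table to 142 (59.4%), against 86.3% of all shared regions, and to 71.1% of the rising regions.

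**Figure D4:**
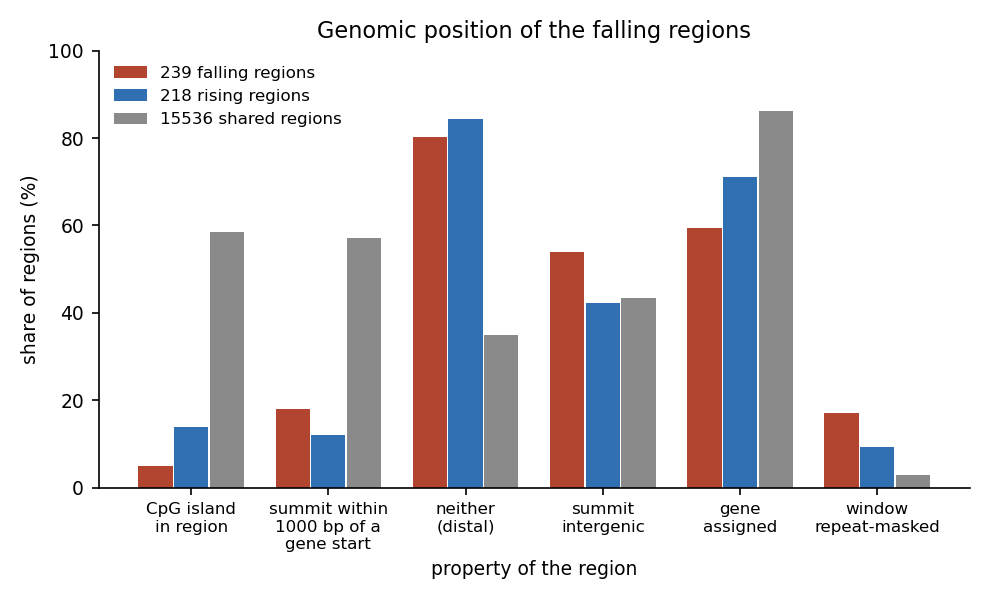
Share of regions (%) with a CpG island, with the summit within 1000 bp of a gene start, with neither, with an intergenic summit, with an assigned gene, and with a repeat-masked summit window, for 239 falling, 218 rising and 15536 shared regions. CpG islands are in 5.02% of the falling and 58.6% of all shared regions, while repeat-masked windows make up 17.2% and 2.91%.

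The falling regions were spread over the genome, with an uneven share on chromosome 11. That chromosome held 1 of the 239 (0.418%), the start of *Zfp454*, although 7.99% of all shared regions and 6.97% of distal ones lie there. Chromosome 5 held 25 (10.5%, against 6.85% of shared regions), chromosome 13 held 19 (7.95% against 4.36%) and chromosome 14 held 15 (6.28% against 3.47%). Few were clustered, since 6 had another falling region within 50 kb. The 198 other shared regions within 50 kb had a median change of 0.09 at 120 h, beside 0.15 for all shared regions that did not fall, and the 79 distal ones among them had -0.24, beside -0.22. The GC content was 50.9% in the median, against 58.6% over all shared regions, and the regions were 657 bp wide, against 819 bp. Among distal regions alone the falling regions had a similar GC content and were wider. The GC content was 50.3% in falling and 49.4% in other distal regions, and the widths were 634.5 and 583 bp. The peaks of the falling regions narrowed with time, with medians of 619 bp (0 h), 455 bp (18 h), 418.5 bp (48 h) and 361.5 bp (120 h). Those of all shared regions also narrowed by 18 h and then widened, with 727 bp (0 h), 486 bp (18 h), 493.5 bp (48 h) and 546 bp (120 h). The other distal regions had 528, 374, 366 and 389.5 bp at the same timepoints.

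The starts of genes assigned to falling regions elsewhere were also read. For 45 genes that were assigned a falling region away from their start and had a shared region at their start, the start region had a median change of 0.04 at 120 h, with 22 below 0 and 0 at the limit. Over all 8873 shared regions at gene starts the median was 0.32, and 43 were at the limit, so a count of 0 among 45 is near the background and these starts had a lower median than gene starts as a whole, a difference that was not tested. The lowest was *Dnahc7b*, a dynein heavy chain gene, whose start had 153 and 165 (0 h), 49 and 59 (18 h), 34 and 48 (48 h), and 37 and 31 (120 h), a change of -1.34. *Nav2* followed with -1.27. At the other end, the start of *Macrod2* had 503 and 632 (0 h) and 670 and 541 (120 h), a change of 0.99, while its falling region, at chr2:140773365-140773900, changed by -1.84. For *Dact3*, an inhibitor of Wnt signalling, the values were 0.70 at the start and -2.15 at the falling region. That region lies in an intron of *Prkd2* and was assigned to *Prkd2* too, whose start changed by 0.28. A region assigned to several of these genes was counted for each.

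Among the 43 falling regions at gene starts, 4 were at genes named Zfp (9.30%), against 3.23% of the 8873 shared regions at gene starts and 2 of the 26 rising regions at gene starts (7.69%), a group named after its values were seen. *Zfp454*, *Zfp820*, *Zfp760* and *Zfp677* encode zinc finger proteins, and the last 3 lie within the same stretch of chromosome 17. The start of *Zfp820*, at chr17:21845523-21846197, had 385 and 400 (0 h), 111 and 169 (18 h), 89 and 132 (48 h), and 92 and 46 (120 h), a change of -1.70. The start of *Zfp760*, at chr17:21707264-21707984, had 366 and 278, 67 and 95, 65 and 70, and 75 and 42 at the same timepoints. The start of *3110052M02Rik*, 0.095 kb from that of *Zfp983* on the same chromosome, had 391 and 521 (0 h) and 99 and 47 (120 h). The largest fall at any gene start was that of *Rsl1*, a zinc finger repressor gene on chromosome 13, with 295 and 302 (0 h), 57 and 96 (18 h), 67 and 107 (48 h), and 45 and 31 (120 h), a change of -2.11. The 287 shared regions at Zfp starts had a median change of 0.09. Such genes belong to a large family with closely related copies, and whether reads were split between them was not tested.

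The windows of the 2 gene start regions with the largest falls whose sequence lies outside UTRs are shown with CCAAT in capitals. The first is at the start of *Gpr98*, now *Adgrv1*, an adhesion G protein-coupled receptor, and overlaps a CpG island, and the second, on chromosome X, lies 882 bp from the start of *Gm41*.
chr13:81633181-81633380, plus strand: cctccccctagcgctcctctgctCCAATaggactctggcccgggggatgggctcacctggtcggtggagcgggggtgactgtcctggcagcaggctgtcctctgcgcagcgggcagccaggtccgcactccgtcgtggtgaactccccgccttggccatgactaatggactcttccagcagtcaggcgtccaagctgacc
chrX:86354013-86354212, plus strand: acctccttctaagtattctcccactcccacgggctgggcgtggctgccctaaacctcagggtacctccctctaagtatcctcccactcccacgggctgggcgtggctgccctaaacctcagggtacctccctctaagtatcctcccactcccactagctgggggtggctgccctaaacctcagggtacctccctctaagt
The *Gpr98* region had 656 and 736 (0 h), 270 and 354 (18 h), 179 and 286 (48 h), and 152 and 63 (120 h). The *Gm41* region had 267 and 453, 172 and 211, 71 and 94, and 69 and 37, and its centred signal was lower only from 48 h on. Its window holds no CCAAT, and at least 1 run of 15 bases occurs in it more than once. *H2-Q7*, a major histocompatibility gene of a family with near-identical copies, had a start region with 428 and 598 (0 h) and 98 and 56 (120 h). The placing of reads between copies was not tested there.

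The 164 genes assigned to falling regions made up 1.14% of the 14396 genes assigned to shared regions, and 162 of them had 1 falling region each. *Fryl*, a large gene of the furry family, had 3, all in introns, and *Dst*, which encodes the cytoskeletal linker dystonin, had 2. The 3 *Fryl* regions had 387 and 321, 282 and 288, and 288 and 262 (0 h), and 73 and 44, 69 and 34, and 65 and 36 (120 h). The *Dst* region with its summit in an exon, at chr1:34166244-34166970, had 351 and 376 (0 h), 124 and 118 (18 h), 85 and 128 (48 h), and 51 and 39 (120 h). The second, in an intron, went from 673 and 530 to 202 and 56.

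Few listed genes were among them, as for genes in general. Of 360 listed genes with a shared region, from lists of spermatogonial, signalling, housekeeping and somatic marker genes, 2 had a falling region (0.556%), *Itga6* and *Syce2*, where 1.14% of all assigned genes did, so the count is too small to set the lists apart. *Itga6*, a laminin receptor subunit found on spermatogonial stem cells, was 1 of 25 undifferentiated spermatogonia and GDNF genes and 1 of 35 cadherins, integrins and ephrins. Its region, at chr2:71866486-71867212, lies 6.41 kb from the start of *Pdk1*, which was assigned too, and had 658 and 597 (0 h), 162 and 200 (18 h), 151 and 176 (48 h), and 156 and 40 (120 h). The libraries at 18 and 48 h overlapped there, and the *Itga6* start itself changed by 0.44. *Syce2*, a component of the synaptonemal complex, was 1 of 21 meiotic prophase genes, and its region had 377 and 389 (0 h) and 90 and 56 (120 h) but lies at the start of *Gcdh* and was assigned to *Gcdh* and *Klf1* as well. No falling region was assigned to the listed genes of progenitor spermatogonia (0 of 7), differentiating spermatogonia (0 of 13), the RA pathway (0 of 15), FGF and ERK feedback (0 of 18), AP-1 and immediate early response (0 of 18), Wnt (0 of 26), TGF beta and BMP (0 of 33), Hedgehog and Notch (0 of 21), PI3K, AKT and mTOR (0 of 26), pluripotency (0 of 12), the cell cycle (0 of 34) or ribosomal proteins (0 of 52), nor to the marker lists of germ and somatic cells. The same held for 12 genes whose tracks were shown with these data.

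The CCAAT box was the motif that differed most between distal falling regions and other distal regions. Of 30 motifs searched on both strands within 100 bp of the summit, 25 had shares within 5 percentage points of each other in the 2 sets. CCAAT was in 96 of 192 distal falling regions (50%, 95% Wilson interval 43.0 to 57.0%), in 28.2% of 5242 other distal regions, in 20.1% of distal rising regions and in 32.7% of all shared regions. Several copies were found in 32.3% of the distal falling regions, where 2 or more are counted, against 8.76% of the other distal ones, and 3 or more copies in 14.6% against 3.53%. The nearest copy lay a median of 16 bp from the summit, against 32.5 bp. The longer form CCAATCA, added after the data were seen and contained in the count for CCAAT, was in 29.2%, against 8.37% of other distal, 2.72% of distal rising and 10.5% of all shared regions. The region at chr8:118618677-118619408 in an intron of *Cdh13*, with 496 and 442 (0 h), 108 and 170 (18 h), 71 and 76 (48 h), and 69 and 38 (120 h), holds 5 CCAAT copies, here in lower case, and 1 nuclear receptor site, in capitals as TGACCT, the reverse complement of AGGTCA.
chr8:118618909-118619108, plus strand: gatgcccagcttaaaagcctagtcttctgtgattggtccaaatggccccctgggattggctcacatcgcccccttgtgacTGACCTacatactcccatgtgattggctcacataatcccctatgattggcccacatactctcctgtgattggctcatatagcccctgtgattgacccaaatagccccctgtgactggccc

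These shares also moved with the height of the region and with copied sequence. Among the 1031 other distal regions at least as high at 0 h as the lower quartile of the distal falling ones (a deposited signal of 299.5), CCAAT was in 40.0% and CCAATCA in 16.5%. There 2 or more copies of CCAAT were in 19.5% and 3 or more in 9.31%, so the differences were smaller among tall regions. A run of 15 bases recurred in 27 of the 96 distal falling windows with CCAAT, beside 68 of all 192. In windows unlike any other shared window, CCAAT was in 40.7% of 140 distal falling regions and 26.3% of 4775 others, and CCAATCA in 17.9% and 6.93%. The share of 40.7% lies below the Wilson interval given above, which treats copied windows as independent. In windows that were mostly not repeat-masked, the shares of CCAAT were 45.4% and 27.4%. Over all distal regions, those with CCAATCA had a median change of -0.16 from 18 to 48 h (n = 495), those with CCAAT alone -0.07 (n = 1080) and those with neither -0.03 (n = 3859), and 11.3%, 3.70% and 2.49% of these 3 sets were falling regions.

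**Figure D5:**
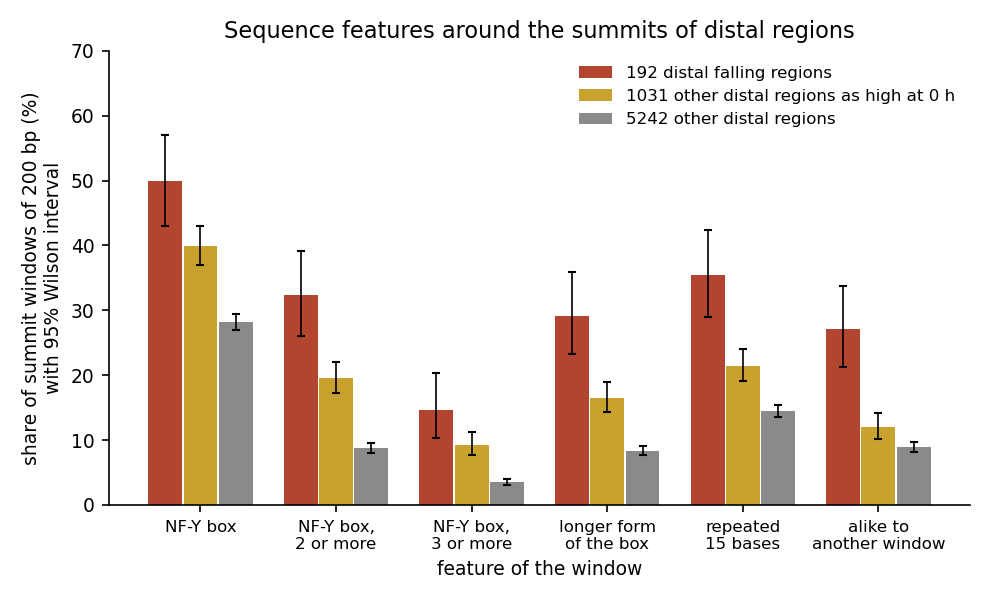
Share of 200 bp summit windows (%, with 95% Wilson interval) with the NF-Y box CCAAT in 1, 2 or 3 or more copies, with its longer form, with a repeated run of 15 bases, and alike to another shared window, in 192 distal falling regions, 1031 other distal regions as high at 0 h and 5242 other distal regions. The box is in 50%, 40.0% and 28.2% of the 3 sets, and a repeated run in 35.4%, 21.4% and 14.5%.

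Other motifs differed less or were fewer in the falling regions. The nuclear receptor site AGGTCA was in 15.1% of distal falling regions (10.7 to 20.9%) and 11% of other distal ones, and the forkhead motif TGTTTAC, which is also in the chromosome 4 window printed with the *Dazl* and *Ncam1* ones, in 6.77% (4 to 11.2%) and 3.8%. In windows that were mostly not repeat-masked these shares were 11.2% and 10.7% for AGGTCA and 3.29% and 3.38% for the forkhead motif, so neither differed by more than 1 percentage point there. No distal falling region held the direct repeat of AGGTCA with a spacer of 5 bases, which was in 0.0572% of other distal regions. The DMRT motif ACATTGT was in 12%, against 24.8% of other distal and 28.3% of distal rising regions. The E-boxes CAGCTG and CAGGTG were in 10.4% and 14.6%, against 17.3% and 22.1%, the MYB motif CAACTG in 5.73% against 11%, and the AP-1 motif TGANTCA in 3.13% against 6.30%. These letters are descriptions of the windows and do not show that a factor was bound.

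Some falling regions were copies of each other. Windows that aligned over at least 80 bp joined 36 of the 239 (15.1%) into 7 groups of 2 to 8 regions, with alignment identities from 75 to 94.5%, and each group was spread over 2 or more chromosomes. An alignment to any other shared window was found for 27.1% of distal falling windows, against 8.91% of other distal ones and 12% of those as high at 0 h. Repeat-masked windows made up 20.8% of distal falling regions and 7.38% of other distal ones. A run of 15 bases occurred more than once within the window in 35.4%, against 14.5%. The authors kept unique read pairs, and whether reads were still placed on the wrong copy was not tested. The signals within a group are not taken as independent of each other.

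The largest group held 8 regions on 7 chromosomes, all repeat-masked, including the chromosome 4 region that fell second most. Its 8 windows all hold CCAAT, and 2 further members are shown beside the chromosome 4 window above, in the strand that aligns with it, with CCAAT in capitals.
chr14:52047517-52047716, minus strand: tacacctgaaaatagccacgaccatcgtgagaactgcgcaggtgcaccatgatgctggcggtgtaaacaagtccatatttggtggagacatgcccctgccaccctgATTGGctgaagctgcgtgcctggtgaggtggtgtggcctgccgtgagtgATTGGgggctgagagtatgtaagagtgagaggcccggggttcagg
chr19:16074461-16074660, minus strand: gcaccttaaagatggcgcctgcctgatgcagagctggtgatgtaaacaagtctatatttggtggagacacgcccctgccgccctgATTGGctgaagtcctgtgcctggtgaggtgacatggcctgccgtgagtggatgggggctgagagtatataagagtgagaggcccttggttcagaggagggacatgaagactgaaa
The chromosome 14 region had 261 and 235 (0 h), 39 and 64 (18 h), 59 and 49 (48 h), and 37 and 32 (120 h), and the chromosome 19 region had 225 and 200, 64 and 69, 37 and 55, and 34 and 33. In both, as in the chromosome 4 window, the 0 h libraries stood above all others, an order that the rule and the uncentred scale favour. Of 9 further shared regions whose windows aligned with this group, all 9 had a negative change at 120 h, with a median of -0.75.

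The second group also held 8 regions, on 6 chromosomes, each with CCAAT in its window, and it includes the region that fell eleventh most, within *6430710C18Rik* on chromosome 2. It is shown with the copy on chromosome 15, so that the likeness within a group can be seen.
chr2:72769341-72769540, plus strand: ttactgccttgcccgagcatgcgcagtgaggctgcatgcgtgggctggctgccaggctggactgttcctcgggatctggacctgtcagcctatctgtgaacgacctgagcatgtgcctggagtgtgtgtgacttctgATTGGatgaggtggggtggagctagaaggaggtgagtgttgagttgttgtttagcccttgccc
chr15:59964669-59964868, minus strand: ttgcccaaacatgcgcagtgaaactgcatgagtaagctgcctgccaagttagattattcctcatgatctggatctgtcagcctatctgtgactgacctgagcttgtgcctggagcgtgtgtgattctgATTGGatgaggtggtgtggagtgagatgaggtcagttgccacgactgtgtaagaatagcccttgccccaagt
The first had 401 and 445 (0 h), 118 and 141 (18 h), 64 and 98 (48 h), and 74 and 33 (120 h), and the second had 368 and 314, 74 and 92, 37 and 55, and 48 and 36. The median change of the group from 18 to 48 h was -0.59. Of 25 further shared copies, 22 had a negative change at 120 h, with a median of -0.99 and a highest value of 0.23. Among all distal regions that did not fall to the limit, 61.8% had a negative change and the median was -0.22, which is the background for these counts of further copies.

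The third group, with 7 regions on 7 chromosomes, had CCAAT in 1 of its windows. It is shown by the chromosome 15 region that had the lowest p from 18 to 48 h, a window in which at least 1 run of 15 bases recurs.
chr15:96788029-96788228, minus strand: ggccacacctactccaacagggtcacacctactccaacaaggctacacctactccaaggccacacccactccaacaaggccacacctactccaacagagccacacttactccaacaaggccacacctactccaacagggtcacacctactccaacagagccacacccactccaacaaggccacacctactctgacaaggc
Its group had a median change of -0.85 from 18 to 48 h, against -0.08 for the first group. A further member, at chr7:35961378-35962006, had 317 and 564 (0 h), 110 and 180 (18 h), 41 and 72 (48 h), and 97 and 37 (120 h). Of 16 further shared copies, 14 had a negative change at 120 h, with a median of -0.80.

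The fourth group, with 5 regions, none of them mostly repeat-masked, carries CCAATCA in the windows shown.
chr7:43253629-43253828, plus strand: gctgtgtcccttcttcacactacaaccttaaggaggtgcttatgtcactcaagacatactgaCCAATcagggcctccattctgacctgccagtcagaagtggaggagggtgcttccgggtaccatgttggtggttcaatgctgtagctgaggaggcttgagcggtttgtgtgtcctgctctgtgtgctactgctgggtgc
chr8:4728221-4728420, minus strand: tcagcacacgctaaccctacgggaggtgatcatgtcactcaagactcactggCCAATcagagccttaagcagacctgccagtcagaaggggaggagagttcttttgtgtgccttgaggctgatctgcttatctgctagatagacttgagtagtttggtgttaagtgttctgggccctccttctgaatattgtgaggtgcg
The chromosome 7 region had 398 and 591 (0 h), 177 and 197 (18 h), 81 and 154 (48 h), and 88 and 45 (120 h), and the chromosome 8 region, 51.2 kb from the start of *Shcbp1*, had 272 and 389, 75 and 83, 46 and 97, and 70 and 34. In the second the libraries at 18 and 48 h overlapped. Of 34 further shared copies, 33 had a negative change at 120 h, with a median of -0.76 and a range from -1.39 to 0.01. The remaining groups held 3, 3 and 2 regions, and 6 of 7, 11 of 11 and 5 of 5 of their further shared copies had a negative change.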

How the data were processed

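Per the labels and methods, the authors aligned ATAC-seq reads to mm10 with BWA 0.7.12, removed duplicates and mitochondrial reads and kept unique read pairs. They reduced all libraries to the same number of tags. Peaks were called per library with MACS2 2.1.0 without a control, leaving out blacklisted peaks. The deposited table gives the summit and mean signal of each peak, which is tag coverage in 32 bp bins, with assigned genes. These are not read counts, so the authors' count-based comparison was not repeated, the depth behind a peak is unknown, and intervals cover counting error only. The intervals treat regions as independent, although some are copies of each other, so they may be too narrow. Where nothing else is said, 2 values at a timepoint are replicates 1 and 2. P-values rest on the spread between the 2 mice of a timepoint, pooled over the 4 timepoints and moderated over all shared regions by limma.

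Peaks were joined, centred and chosen as described above, with starts converted to 1-based positions. Centred heights at 48 h were compared with 18 h by limma 3.58.1 in R 4.3.3 (8 libraries in 4 groups, Benjamini-Hochberg over 15536 regions), checked on simulated data. Features came from GENCODE vM21 basic, sequence from GRCm38 and window alignments from BLAST 2.17.0 (at least 80 bp, expect value 1e-10). Shares were counted in Python 3.11.15 with pandas 2.3.3 and scipy 1.17.1. The regions, gene lists and motifs were chosen with earlier results of these data known. Named regions were the 12 largest falls, the 6 largest at gene starts, up to 3 for each gene list, 3 on each side of the limit, the 5 genes with most falling regions, and the earliest and latest 3, with the 5 lowest p at 48 h against 18 h added later. Alternatives were the scaling, height measure, GC content, limit, window, replicate block and each library left out. The authors' list of merged regions was not used here.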

Additional observations from a re-analysis of the deposited data

How the results depend on the processing

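The number of falling regions followed the scale and the limit. It was 2502 without centring, 157 after quantile normalization, 83 with the mean in place of the summit signal, 525 at the wider and 83 at the narrower of 2 other limits, 111 with peaks of at least 50 alone and 75 when centred on distal regions (added after seeing the data). Leaving out a 0 h or 120 h library gave from 250 to 410. For 48 h against 18 h, the falling regions lower at an adjusted p of 0.05 were 0, but 1 with the 18 and 48 h libraries alone, 2 with an intensity trend and 2 when centred on distal regions. Those at an unadjusted p under 0.05 ranged from 27 to 92, and the median change from -0.54 to -0.22, without single libraries. In the reading of 1 library pair in the other, medians were -2.49 (chosen in replicate 1) and -0.95 (chosen in replicate 2) without centring, and -1.02 with mean signal for the second. At a limit of -2, which 36 regions passed, 2.78% lay at a gene start, 0% held a CpG island, and CCAAT was in 62.9% and the forkhead motif in 2.86% of the distal ones. Within 50 bp of the summit the forkhead motif was in 2.60% and AGGTCA in 9.90%. Counting regions in or within 1000 bp of a gene left 0 listed genes. Replicate numbers are shared between timepoints in the labels, but deviations of same-numbered libraries correlated from -0.22 to 0.25, so they were not taken as pairs, and with a replicate block 73 falling regions were lower at an unadjusted p under 0.05, 0 at the adjusted one, and the median change was -0.38. The cause of these differences was not tested.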
